A study of Mus musculus with 36 samples.

Results

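The libraries described here are the 6 GRwt/wt libraries of run 2, out of 36 in the series: 3 from mouse embryonic fibroblasts (MEFs) given 1 µM dexamethasone (Dex) for 5 h, replicates 4 to 6, and 3 from MEFs given vehicle for 5 h, with the same numbers. They were chosen by their labels for genotype, treatment and run, and not by any measured value. GRwt/wt cells carry 2 wild-type alleles of the glucocorticoid receptor (GR), and the labels give FVB/NJ as the strain. MEFs are primary cells grown out of minced mid-gestation embryos after removal of the head and organs, so they are a mixed stromal culture, and their RNA was sequenced in bulk. The study states 3 cultures per genotype, each from another mouse, without saying which culture gave which library or whether run 1 and run 2 used the same cultures, so the p-values measure the spread between these libraries. For comparison, 3 other sets of 6 libraries with the same dose and time are used: GRwt/wt MEFs of run 1 (replicates 1 to 3), GRL/L MEFs of run 2, which are homozygous for a point mutation in the ligand-binding domain, and GRko/ko MEFs of run 1, which lack the receptor. The labels give the same strain for all of these, whereas the methods name 129/SvJ for the mice behind the knockout.

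GR is a nuclear receptor held in the cytoplasm by heat shock proteins until it binds a glucocorticoid. It then enters the nucleus, where dimers bind palindromic glucocorticoid response elements (GREs) and raise transcription of genes nearby. It also lowers the transcription of many inflammatory genes driven by NF-kB and AP-1. In fibroblasts, glucocorticoids are known for dampening chemokines and prostaglandin synthesis and for changing the extracellular matrix. Dex is a synthetic glucocorticoid with high affinity for GR.

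The 6 libraries held 23575462 to 25587265 counts, and 14720 genes passed the filter on low counts. The fibroblast markers were present, with 16 of 16 detected and a summed level of 43820 to 47400 CPM (counts per 1000000 counts), including Col1a1, Col1a2, Vim and Pdgfra. All 20 macrophage markers were also detected, at a sum of 661 to 710 CPM with vehicle and 613 to 690 CPM with Dex, of which Lyz2 made up the larger share. Markers of red blood cells were at or near 0, with 7 of the 9 in the table at 0 counts in all 6 libraries.

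Dex replicate 4 and vehicle replicate 6 stood apart from the libraries they are grouped with. The counts of Dex replicate 4 differed from those of Dex replicates 5 and 6 by a chi-square of 16.2 and 19.3 per degree of freedom, whereas replicates 5 and 6 differed by 1.78. Genes with long transcripts were low and those with short transcripts high in that library. Its median deviation from the other Dex libraries ran from 0.239 on the log2 scale in the tenth of genes with the shortest transcripts (median length 1161 bases) to -0.316 in the tenth with the longest (median 8562 bases), and 184 of 10005 genes deviated by more than 0.5. Vehicle replicate 6 differed from vehicle replicates 4 and 5 by 5.77 and 5.79, against 2.09 between those 2, and its median deviation was 0.00146 for the shortest and 0.00427 for the longest transcripts. Its 12 epithelial and keratinocyte markers summed to 61.0 CPM, compared with 10.6 and 11.2 CPM in vehicle replicates 4 and 5 and 14.9, 8.02 and 8.08 CPM in the Dex libraries. Nearly all of that excess lay in the basal keratins, with Krt5 at 0.156, 0.364 and 22.5 CPM and Krt14 at 1.02, 1.01 and 27.4 CPM in vehicle replicates 4, 5 and 6. Dex replicate 4 was also above the other Dex libraries in both keratins, with Krt5 at 2.88, 0.081 and 0.321 CPM and Krt14 at 4.28, 0.77 and 1.09 CPM in Dex replicates 4, 5 and 6. Leaving out Dex replicate 4 kept 350 of the 370 genes called raised and 221 of the 255 called lowered. Without vehicle replicate 6, 340 and 201 of them remained. The part of either library's deviation in single results was not tested in other ways.

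**Figure D1:**
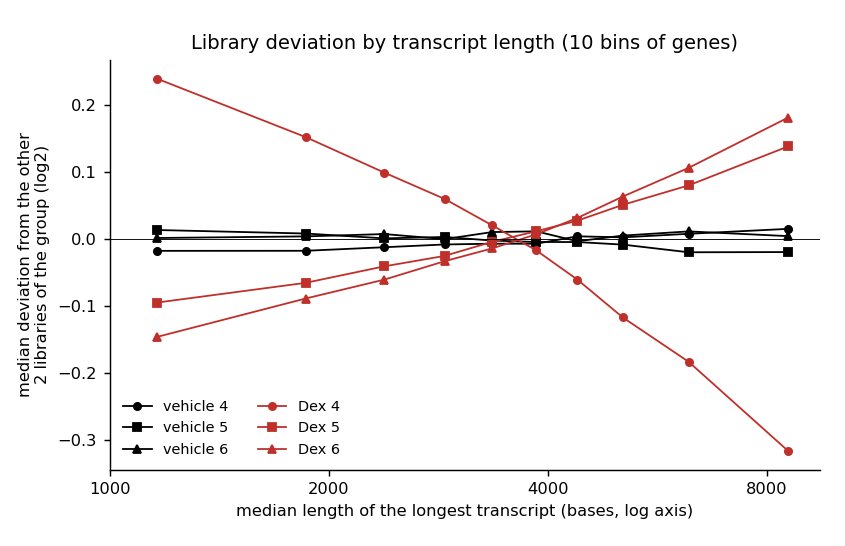
Median deviation of each library from the other 2 libraries of its treatment (log2, vertical axis) in 10 bins of genes ordered by the length of their longest transcript (bases, logarithmic horizontal axis), with vehicle libraries in black and Dex libraries in red. Dex replicate 4 falls from 0.239 to -0.316 from the shortest to the longest bin, while the vehicle libraries stay within 0.02 of 0.

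Dex changed 625 genes past the thresholds used in the study, an adjusted p of at most 0.05 and a change of at least 1 on the log2 scale. Of these, 370 genes (2.51% of those tested) were raised and 255 (1.73%) lowered. Of the raised genes, 111 passed 2 and 42 passed 3 on the log2 scale, and of the lowered genes 34 and 1 passed the same limits. The median log2 fold change was 1.57 among raised and -1.39 among lowered genes, and 0.00053 over all genes tested. Without a limit on the fold change, 1797 genes were higher and 1729 lower at the same adjusted p. Small changes ran with transcript length, as did the deviation of Dex replicate 4. The median log2 fold change fell from 0.125 in the length bin with the shortest transcripts to -0.105 in that with the longest. The part of transcript length in these counts, and in the small medians of the gene lists below, was not tested. The lowest library of one treatment lay above the highest of the other for 369 of the raised and 254 of the lowered genes, compared with 6181 of all genes tested (42.0%).

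**Figure D2:**
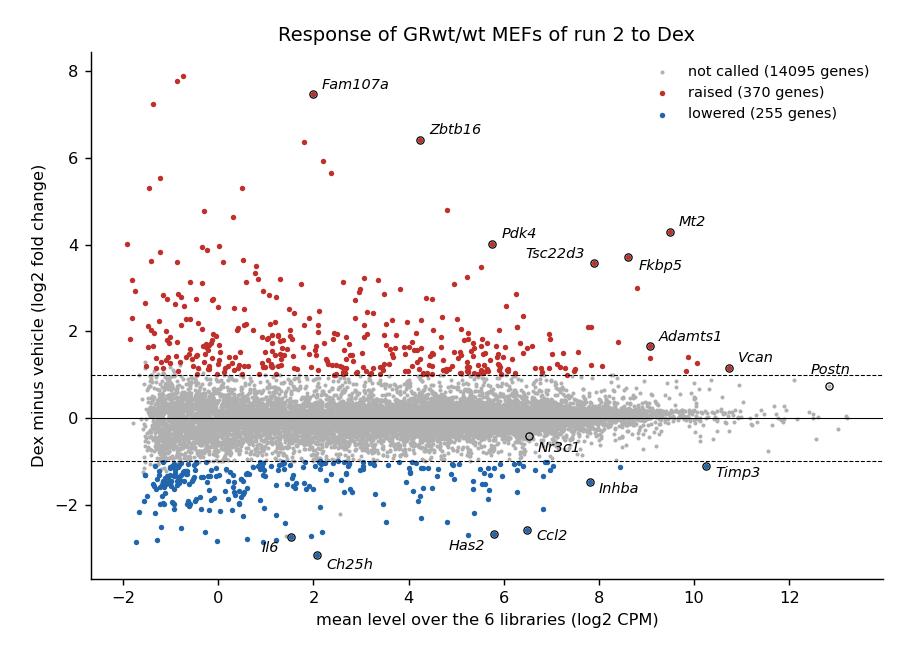
Each point is a gene, with its mean level over the 6 libraries (log2 CPM) on the horizontal axis and its log2 fold change, Dex minus vehicle, on the vertical axis. Dashed lines mark changes of 1 on the log2 scale, the 370 raised genes are red and the 255 lowered genes blue. The raised genes reach past 7, whereas 1 lowered gene lies below -3.

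The receptor gene itself was expressed in both treatments and fell modestly. Nr3c1, which encodes GR, was at 106, 109 and 99.7 CPM with vehicle and at 70.3, 82.5 and 84.9 CPM with Dex, in the order of replicates 4, 5 and 6 as in all such values here. The Dex libraries were all lower, and the change passed the adjusted p but not the limit on size (log2 fold change -0.41 ± 0.07, adjusted p = 0.00192, edgeR quasi-likelihood F test, as for all adjusted p-values here). Of the 19 tested genes for GR, its relatives, cofactors and chaperones, 2 were raised and 1 was lowered. Fkbp5, a cochaperone that lowers the affinity of GR for its ligand and is a classical GR target, was at 54.6, 53.4 and 58.9 CPM with vehicle and 726, 729 and 724 CPM with Dex (log2 fold change 3.71 ± 0.06, adjusted p = 2.87e-11). The 3 Dex libraries were nearly equal and far above the vehicle libraries. Hsd11b2, which inactivates glucocorticoids, and Nr3c2, the mineralocorticoid receptor, were the other called members, but neither exceeded 1.2 CPM in any library. Hsd11b2 was at 0.381, 0.434 and 0.161 CPM with vehicle and 0.992, 0.704 and 0.74 CPM with Dex, and Nr3c2 at 0.991, 1.18 and 0.767 CPM and 0.345, 0.746 and 0.329 CPM. The call of Hsd11b2 was lost without Dex replicate 4 (1.13, adjusted p = 0.0549), vehicle replicate 4 (1.42, adjusted p = 0.0545) or vehicle replicate 6 (0.98, adjusted p = 0.0777), and that of Nr3c2 without any library but Dex replicate 5 (adjusted p = 0.0592 to 0.177). Among the members that were not called, Hsp90aa1, Hsp90ab1, Ptges3, Stip1 and Fkbp4 changed by between -0.04 and 0.12 on the log2 scale.

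The other genes that the study measured by qPCR were also raised. Tsc22d3 encodes GILZ, a leucine zipper protein that mediates part of the anti-inflammatory action of glucocorticoids. It was at 38.7, 35.2 and 36.6 CPM with vehicle and 477, 429 and 412 CPM with Dex, and the groups lay far apart (log2 fold change 3.57 ± 0.07, adjusted p = 8.77e-11). Dusp1, a phosphatase that switches off MAP kinases, rose less, from 11.6, 11.6 and 12.1 CPM to 30.7, 33.2 and 31.5 CPM (log2 fold change 1.43 ± 0.07, adjusted p = 5.66e-08). In GRko/ko MEFs Nr3c1 was at 15.9 to 17.8 CPM with vehicle and 16.7 to 20.5 CPM with Dex, so part of the transcript was counted, and in GRwt/wt of the same run it was at 64.2 to 69.8 and 44.1 to 45.9 CPM. In GRko/ko Fkbp5 changed by -0.02, Tsc22d3 by 0.02 and Dusp1 by 0.05 on the log2 scale. No gene was called there by edgeR or by DESeq2 among 14013 tested, with 813 at an unadjusted p under 0.05 and a smallest adjusted p of 0.373. Those genes raised in GRwt/wt of run 2 that were also tested in GRko/ko had a median change of 0.0034 there. The lowered genes tested there had one of 0.026. Fam107a, Zbtb16, Sult1a1, Map7d2 and Hif3a, among the genes raised most, were not tested in GRko/ko. GRko/ko belongs to run 1, and the difference from GRwt/wt of run 2 was not tested.

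Of the 12 genes raised most, 5 had a mean under 1 CPM with vehicle and the others one of 1.94 to 69.6 CPM. Fam107a, an actin-binding stress-response protein, had 0, 1 and 2 counts with vehicle and 158, 225 and 183 counts with Dex. The ratio of the summed counts was 193, with an exact 95% interval of 65.8 to 940 that covers counting error only. Sult1a1, a phenol sulfotransferase, went from 2, 2 and 2 counts to 176, 169 and 149 counts, a ratio of 84.3 (38.5 to 231). Neither gene had more than 2 counts in any vehicle library. Zbtb16 encodes the zinc finger repressor PLZF and was at 0.61, 0.276 and 0.403 CPM with vehicle and 27.5, 41.9 and 42.7 CPM with Dex (log2 fold change 6.42 ± 0.26, adjusted p = 1.54e-08). Dex replicate 4 was the lowest of the Dex libraries and still far above all vehicle libraries. Map7d2, a microtubule-associated protein, rose from 0.0763, 0 and 0.363 CPM to 9.53, 8.87 and 8.92 CPM (log2 fold change 5.93 ± 0.35, adjusted p = 2.74e-07). Hif3a, a member of the hypoxia-inducible factor family that can act as an inhibitor of the others, rose from 0.152, 0.316 and 0.121 CPM to 8.28, 11.7 and 10.4 CPM (log2 fold change 5.65 ± 0.26, adjusted p = 4.14e-08). These 5 genes met the mean count of 50 for named genes only through the Dex libraries, with at most 16 counts in any vehicle library. They were chosen by their fold change, so the adjusted p-values given for them are no separate evidence of the rise. In all, 16 raised genes had 0 to 3 counts in every vehicle library.

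Genes with a clear level in the vehicle libraries rose too. Aldh1a7, a cytosolic aldehyde dehydrogenase, rose from 1.87, 1.97 and 1.98 CPM to 55.9, 51.5 and 54 CPM, with a narrow spread in both groups (log2 fold change 4.79 ± 0.09, adjusted p = 4.19e-11). The dipeptidase gene Dpep1 rose from 6.67, 7.57 and 8.27 CPM to 85.1, 87.3 and 80.9 CPM (log2 fold change 3.49 ± 0.08, adjusted p = 2.48e-10). Tent5b, a noncanonical poly(A) polymerase, rose from 7.13, 6.15 and 8.11 CPM to 68.2, 69.6 and 64.8 CPM (log2 fold change 3.24 ± 0.09, adjusted p = 1.02e-09). For each of these 3 genes the Dex libraries lay close together and far above the vehicle libraries.

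**Figure D3:**
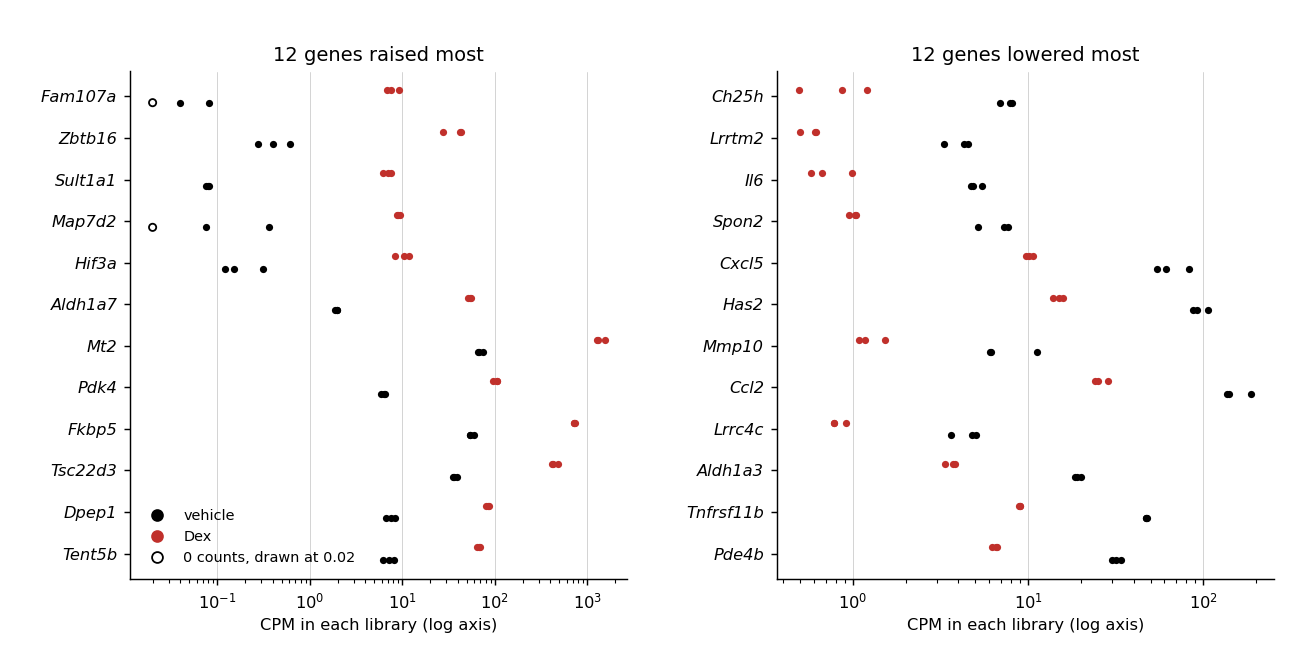
Level of the 12 genes raised most (left) and the 12 lowered most (right) in each of the 6 libraries, as CPM on a logarithmic axis, with 3 vehicle libraries in black and 3 Dex libraries in red per gene. The treatments do not overlap for any of the 24 genes, as the rule that chose them requires, and the spread within a treatment is small against the distance between them for genes above about 10 CPM.

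A list of 30 classical glucocorticoid targets, chosen from general knowledge with earlier results of these data known and so no independent evidence of its direction, held 19 raised genes and 1 lowered gene. The median change over the list was 1.57 on the log2 scale, beside 0.00053 over all genes. The exception was Angptl4, an inhibitor of lipoprotein lipase named here after its value was seen, which fell from 15.5, 13.3 and 16.8 CPM to 4.83, 4.72 and 3.99 CPM (log2 fold change -1.75 ± 0.12). Other members, among them Plin2, Lpin1, Bcl6 and Lcn2, did not pass the test, with changes of -0.09, -0.06, 0.25 and 0.73. Nfkbia, Zfp36, Ddit4 and Pik3r1 had an adjusted p under the threshold and stayed below the limit on size, at 0.89, 0.65, 0.72 and 0.90 on the log2 scale.

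Palindromes of the GRE type were searched for in the RefSeq promoters (build GRCm38.p6), each from 250 bases before to 50 bases after a transcription start. The search used the letters GNACANNNTGTNC, which read the same on both strands. Of the 370 raised genes, 260 had at least 1 promoter in the table and 10 of these (3.85%) held a match. A match was found in 11 of the 346 promoters of raised genes (3.18%), in 1 of the 210 of lowered genes (0.476%), in 46 of the 13826 of all genes tested (0.333%) and in 156 of all 32851 promoters (0.475%). These shares describe letters in windows and not bound sites. The matches of 8 raised protein-coding genes are shown to let the spelling of the palindrome be compared, each 5′ to 3′ on the strand of the gene with the palindrome in capitals.
Fam107a, chr14:8309861-8309921, minus strand, 118 to 106 bases before the start: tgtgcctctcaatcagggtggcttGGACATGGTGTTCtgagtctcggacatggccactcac
Serpina3c, chr12:104153911-104153971, minus strand, 75 to 63 bases before the start: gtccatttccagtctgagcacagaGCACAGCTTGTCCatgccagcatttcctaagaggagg
Mt1, chr8:94178971-94179031, plus strand, 94 to 82 bases before the start: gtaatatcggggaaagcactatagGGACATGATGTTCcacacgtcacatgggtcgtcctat
Slc10a6, chr5:103629530-103629590, minus strand, 163 to 151 bases before the start: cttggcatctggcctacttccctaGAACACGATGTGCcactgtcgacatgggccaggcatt
Trim63, chr4:134314888-134314948, plus strand, 208 to 196 bases before the start: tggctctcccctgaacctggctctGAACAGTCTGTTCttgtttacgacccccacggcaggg
Map3k6, chr4:133240613-133240673, plus strand, 181 to 169 bases before the start: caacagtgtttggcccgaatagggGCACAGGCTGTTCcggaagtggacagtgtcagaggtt
Sgk1, chr10:21993678-21993738, plus strand, 188 to 176 bases before the start: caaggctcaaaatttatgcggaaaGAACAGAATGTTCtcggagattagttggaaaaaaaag
Suox, chr10:128673928-128673988, minus strand, 46 to 34 bases before the start: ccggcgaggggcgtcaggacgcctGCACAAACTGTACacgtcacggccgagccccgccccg
The responses of these genes spanned most of the range of the raised genes, from 1.10 for Suox, a sulfite oxidase, to the rise of Fam107a from near silence. Slc10a6, a carrier of sulfated steroids, rose from 1.37, 1.85 and 2.14 CPM to 14.7, 13.1 and 14.3 CPM (log2 fold change 2.97 ± 0.14), and Trim63, the ubiquitin ligase MuRF1 known from muscle wasting under glucocorticoids, from 0.991, 0.947 and 0.888 CPM to 5.52, 4.68 and 4.94 CPM (log2 fold change 2.41 ± 0.17). The kinase gene Map3k6 rose from 10.5, 11 and 11.9 CPM to 37.2, 41.4 and 42.6 CPM (log2 fold change 1.86 ± 0.08). Slc10a6, Trim63, Map3k6 and Suox were chosen after their values were seen, because of the match. The remaining 2 raised genes with a match were Map7d2 and Gm6093.

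**Figure D4:**
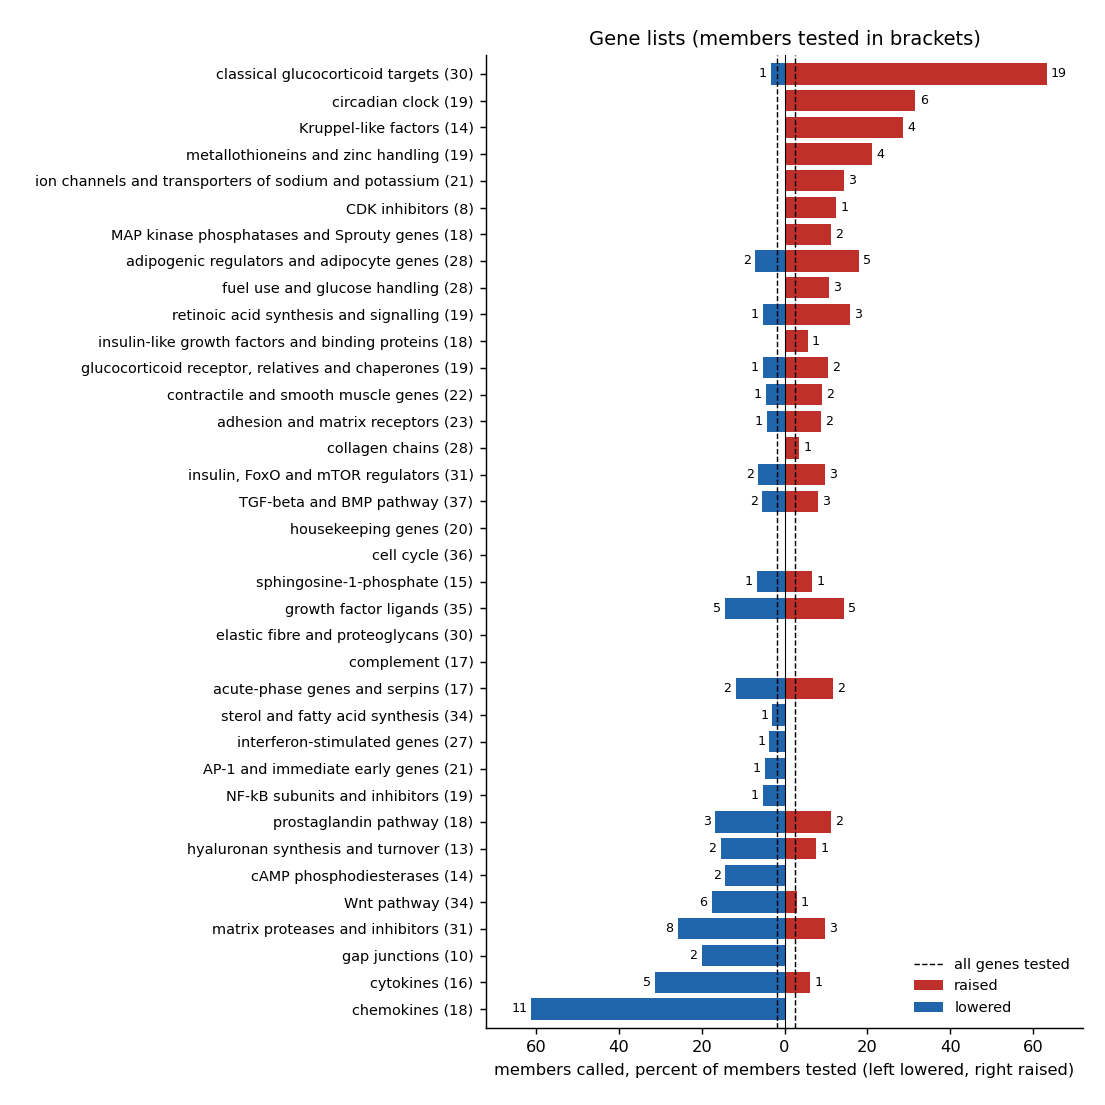
Share of the tested members of each of 36 gene lists that was raised (red, to the right) or lowered (blue, to the left), in percent, with the number of called members at the end of each bar and the number tested in brackets. Dashed lines mark the shares over all genes tested, 2.51% raised and 1.73% lowered. Chemokines hold the largest lowered share (11 of 18), and the classical targets the largest raised share (19 of 30).

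All 4 metallothioneins in the table, small cysteine-rich proteins that bind zinc and copper, were raised. Mt2 rose from 66.8, 66.6 and 75.4 CPM to 1546, 1271 and 1291 CPM (log2 fold change 4.30 ± 0.09, adjusted p = 1.31e-10), and its neighbour Mt1 from 96.8, 95.9 and 104 CPM to 925, 718 and 722 CPM (log2 fold change 2.99 ± 0.10, adjusted p = 4.31e-09). In both genes Dex replicate 4 was the highest library, and both have short transcripts. Mt3 and Mt4 rose from much lower levels, Mt3 from 0.724, 0.671 and 0.524 CPM to 2.93, 2.49 and 2.55 CPM (log2 fold change 2.04 ± 0.21) and Mt4 from 0, 0 and 1 counts to 20, 22 and 18 counts. None of the 15 other tested genes of zinc handling, which are zinc transporters and the sensor Mtf1, was called, and their changes lay between -0.44 and 0.42 on the log2 scale.

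Of 19 tested clock genes, 6 were raised (31.6%, beside 2.51% of all genes tested) and none was lowered past the limit on size. The list held 9 higher and 6 lower genes at the adjusted p alone, and its median was -0.20. Per1 and Per2, which encode repressors of the clock, rose from 22.6, 22.4 and 25.9 CPM to 89.9, 101 and 97.5 CPM (log2 fold change 2.03 ± 0.08, adjusted p = 8.15e-09) and from 3.7, 4.22 and 5.12 CPM to 18.7, 23.3 and 20.6 CPM (log2 fold change 2.27 ± 0.13, adjusted p = 1.56e-07). Cry1, their partner, rose from 17.6, 17.3 and 18.7 CPM to 37.7, 38.2 and 36.8 CPM (log2 fold change 1.07 ± 0.06), and Nfil3, a repressor of D-box genes, from 33.1, 33.8 and 37.4 CPM to 86.6, 76.7 and 82.9 CPM (log2 fold change 1.24 ± 0.07). The activators Arntl and Clock had changes of -0.38 and -0.27. The remaining members raised were Ciart and Hlf, named after their values were seen, and without Dex replicate 4 or without vehicle replicate 6 the list held 5 raised genes.

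Among the Krüppel-like factors, zinc finger transcription factors several of which are known glucocorticoid targets, 4 of 14 were raised and none was lowered. Klf15, a regulator of amino acid and glucose metabolism, rose most, from 3.24, 3.63 and 2.66 CPM to 25.7, 25.5 and 24.1 CPM (log2 fold change 2.98 ± 0.10, adjusted p = 5.55e-09). Klf9 went from 83.1, 84.2 and 80.9 CPM to 182, 207 and 199.6 CPM (log2 fold change 1.25 ± 0.06) and Klf5, a factor of early adipocyte differentiation, from 19.4, 20.2 and 21.5 CPM to 61.1, 61.9 and 55.8 CPM (log2 fold change 1.55 ± 0.07). Klf12 was close to the limit on size (1.05) and fell below it without Dex replicate 5 (0.89) or 6 (0.97).

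Chemokines held the largest share of lowered genes among the lists. Of 18 tested, 11 were lowered and none was raised, and the median of the list was -1.65 on the log2 scale. Ccl2, which attracts monocytes, fell from 136, 140.2 and 188 CPM to 28.7, 25.1 and 23.9 CPM (log2 fold change -2.58 ± 0.12, adjusted p = 4.59e-08). Cxcl5, a neutrophil attractant, fell from 61.3, 54.7 and 82.6 CPM to 9.66, 10.1 and 10.7 CPM (log2 fold change -2.71 ± 0.14, adjusted p = 1.07e-07). In both genes vehicle replicate 6 was the highest library, and the other 2 vehicle libraries also lay far above every Dex library. Cx3cl1, the membrane-bound fractalkine, fell from 63.9, 59.9 and 62.6 CPM to 19.1, 19.5 and 20.8 CPM (log2 fold change -1.65 ± 0.06, adjusted p = 1.07e-08), and Cxcl14 from 75.7, 73.3 and 86.5 CPM to 27.9, 22.8 and 23.3 CPM (log2 fold change -1.67 ± 0.09). The other 7, named after their values were seen, were Ccl12, Cxcl10, Ccl20, Ccl11, Ccl7, Cxcl1 and Ccl4, at -2.13 to -1.48. Of the chemokines not called, Cxcl12, a constitutive stromal chemokine, changed by -0.53 and Ccl9 by 0.04. Without vehicle replicate 6 the list held 10 lowered genes, and without Dex replicate 4 it held 12.

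Of 16 tested cytokines, 5 were lowered and 1 was raised. Il6 fell from 4.69, 4.85 and 5.49 CPM to 0.992, 0.663 and 0.576 CPM (log2 fold change -2.75 ± 0.20, adjusted p = 1.78e-06). Its relatives Lif and Il11, which signal through the same gp130 subunit, fell from 8.92, 9.11 and 9.32 CPM to 3.62, 3.19 and 4.4 CPM (log2 fold change -1.28 ± 0.12) and from 4.92, 5.17 and 5.33 CPM to 1.51, 1.91 and 1.97 CPM (log2 fold change -1.51 ± 0.15). The raised member was Il1rn, the natural antagonist of the IL-1 receptor, which rose from 33.4, 36.8 and 37.5 CPM to 83.8, 85.9 and 81.6 CPM (log2 fold change 1.22 ± 0.06, adjusted p = 8.69e-08). Tslp and Tnfsf11, named after their values were seen, had changes of -1.30 and -1.11 and were called lowered.

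Among genes for transcription factors known to drive such genes, 5.26% of the NF-kB list and 4.76% of the AP-1 list were lowered. The share over all genes tested was 1.73%. At the adjusted p alone, 1 NF-kB gene was higher and 8 were lower, with a list median of -0.23. In the AP-1 and immediate early list 3 were higher and 7 lower, with a median of -0.16. Of 19 NF-kB subunits and inhibitors, Relb was lowered, from 21.4, 21.9 and 24.6 CPM to 11.8, 11.2 and 10.4 CPM (log2 fold change -1.02 ± 0.08, adjusted p = 4.87e-06), and its call was lost without vehicle replicate 6 (-0.96) or Dex replicate 6 (-0.98). Rela, Nfkb1 and Chuk had changes of 0.00, -0.15 and -0.06, and Nfkbia, the inhibitor IkB-alpha, one of 0.89 with an adjusted p of 5.94e-06. Of 21 AP-1 and immediate early genes 1 was lowered, Egr3, from 10.3, 7.93 and 9.2 CPM to 4.18, 3.81 and 3.41 CPM (log2 fold change -1.27 ± 0.13), while Jun changed by -0.06 and Fosl2 by -0.16. Rsad2, at or below 1.45 CPM, was the 1 lowered gene of 27 interferon-stimulated genes, and the median of that list was -0.21.

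A second search in the same promoters used the letters GGG, any 2 bases and then TTTCC on both strands, a form of the NF-kB site. It matched 11 of the 210 promoters of lowered genes (5.24%), 5 of the 346 of raised genes (1.45%) and 234 of the 13826 of all genes tested (1.69%). The AP-1 letters TGANTCA matched 11.9% of the promoters of lowered genes, 10.7% of those of raised genes, 5.16% of those of all genes tested and 7.81% of all promoters. Of the 11 lowered genes with a match to the NF-kB letters, 3 were among the 16 lowered members of the cytokine and chemokine lists. The others were A830029E22Rik, Cd300lb, Col17a1, Fgf21, Gm13652, Nos1, Pik3r3 and Serpina3g, which are in neither list. The windows of those 3 list members are shown beside their fall, with the match in capitals, on the opposite strand for Ccl20. Cxcl1 held another match on the opposite strand, 89 to 80 bases before the start.
Il6, chr5:30013046-30013103, plus strand, 44 to 35 bases before the start: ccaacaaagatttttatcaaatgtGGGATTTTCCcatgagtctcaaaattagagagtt
Cxcl1, chr5:90891150-90891207, plus strand, 71 to 62 bases before the start: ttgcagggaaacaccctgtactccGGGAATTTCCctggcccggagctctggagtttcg
Ccl20, chr1:83116662-83116719, plus strand, 80 to 71 bases before the start: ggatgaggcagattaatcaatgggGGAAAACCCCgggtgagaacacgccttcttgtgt
Cxcl1 fell from 9.87, 8.8 and 12.3 CPM to 3.23, 3.56 and 3.08 CPM (log2 fold change -1.64 ± 0.14) and Ccl20 from 1.18, 1.3 and 2.9 CPM to 0.733, 0.249 and 0.494 CPM (log2 fold change -1.86 ± 0.44), where vehicle replicate 6 stood well above the other vehicle libraries.

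Both called enzymes of the first steps of prostaglandin synthesis fell. Ptgs2, the inducible cyclooxygenase, fell from 64.6, 63.8 and 74.6 CPM to 14.7, 14 and 15.4 CPM (log2 fold change -2.20 ± 0.08, adjusted p = 7.12e-09). Pla2g4a, the phospholipase that frees arachidonic acid, fell from 117, 119 and 113 CPM to 55.8, 52.4 and 52.6 CPM (log2 fold change -1.12 ± 0.06, adjusted p = 6.91e-08). Of the receptors for prostaglandin E2, Ptger4 fell from 22, 21.8 and 25.3 CPM to 9.36, 9.45 and 9.58 CPM (log2 fold change -1.28 ± 0.08) and Ptger3 rose from 1.22, 1.18 and 1.17 CPM to 4.36, 4.77 and 4.24 CPM (log2 fold change 1.90 ± 0.16). Hpgd, which degrades prostaglandins and is named after its value was seen, rose by 1.03. In all, 3 of the 18 tested genes of the pathway were lowered and 2 raised. Anxa1, a glucocorticoid-regulated inhibitor of phospholipase A2, changed by 0.88 with an adjusted p of 1.76e-06, under the limit on size.

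Of 17 tested acute-phase genes and serpins, 2 were raised and 2 lowered (11.8% each), beside 2.51% and 1.73% of all genes tested. Serpina3c rose from 0.458, 0.197 and 0.363 CPM to 2.93, 4.02 and 2.67 CPM (log2 fold change 3.22 ± 0.29) and Serpina3m from 5.76, 6.51 and 7.79 CPM to 15, 15.1 and 15.3 CPM (log2 fold change 1.18 ± 0.11), while Serpina3g fell from 10.4, 10.4 and 13 CPM to 6.17, 4.72 and 4.77 CPM (log2 fold change -1.11 ± 0.13). These are close paralogs, and reads shared between them may be missing from counts of unique reads. Serpinb2, the plasminogen activator inhibitor PAI-2, was at 2.17, 2.45 and 4.24 CPM with vehicle and 1.38, 1.2 and 1.48 CPM with Dex, and without vehicle replicate 6 neither it (-0.77) nor Serpina3g (-0.99) was called and the list held 4 raised genes and none lowered.

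Of 31 tested matrix proteases and their inhibitors, 8 were lowered and 3 raised. Mmp10, the protease stromelysin-2, fell from 6.06, 6.11 and 11.3 CPM to 1.16, 1.08 and 1.52 CPM (log2 fold change -2.63 ± 0.28, adjusted p = 4.06e-05), and vehicle replicate 6 was the highest. Plat, tissue plasminogen activator, fell from 138, 141 and 144 CPM to 60.1, 62.7 and 62.4 CPM (log2 fold change -1.19 ± 0.05, adjusted p = 2.73e-08). Timp3, a matrix-bound inhibitor of metalloproteases, fell from 1697, 1668 and 1645 CPM to 711, 787 and 821 CPM (log2 fold change -1.11 ± 0.06). The aggrecanase gene Adamts4 fell from 40.7, 40.1 and 45 CPM to 15.1, 17.3 and 18.7 CPM (log2 fold change -1.30 ± 0.09). Adamts1, a versican-cleaving protease, rose from 257, 255 and 267 CPM to 778, 809 and 854 CPM (log2 fold change 1.65 ± 0.06, adjusted p = 5.08e-09). Without vehicle replicate 6, whose keratinocyte markers were high, the list held 6 lowered genes, and Mmp3 (-0.62, compared with -1.16) and Mmp13 (-0.86, compared with -1.07) were no longer called. Mmp9, another member named after its value was seen, was at 18, 15.5 and 44.5 CPM with vehicle and 8.37, 7.87 and 8.02 CPM with Dex and changed by -1.05 without that library, compared with -1.68 with it. Lad1, Pkp1, Spink5 and Col17a1, genes of epidermal cell contacts and barrier outside this list, were called lowered as well, and of these 4 Col17a1 was called without vehicle replicate 6. The part of keratinocyte RNA in these results was not tested.

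The hyaluronan synthase genes Has2 and Has1 fell, while no elastic fibre gene and 1 collagen gene was called. Has2, the main hyaluronan synthase of fibroblasts, fell from 87.1, 92.5 and 107 CPM to 15, 13.8 and 15.9 CPM (log2 fold change -2.68 ± 0.09, adjusted p = 4.34e-09). Its relative Has1, at or below 1.4 CPM, was lowered as well (log2 fold change -1.98 ± 0.41). Vcan, the hyaluronan-binding proteoglycan versican, rose from 1052, 1038 and 1040 CPM to 1879, 2521 and 2614 CPM (log2 fold change 1.16 ± 0.10, adjusted p = 8.22e-06). Of 28 collagen chains 1 was raised, Col11a1, from 325, 306 and 272 CPM to 691, 820.2 and 829 CPM (log2 fold change 1.37 ± 0.08, adjusted p = 3.93e-07), whereas Col1a1, Col1a2 and Col3a1 changed by 0.05, 0.00 and -0.02. In Vcan and Col11a1, which have long transcripts, Dex replicate 4 was the lowest Dex library. None of 30 genes in the list of elastic fibres and proteoglycans, which does not hold Vcan, was called. Of these, 9 were higher and 2 lower at the adjusted p alone, and their median was 0.077.

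Adhesion and contractile genes were called in both directions. Itgb3, the beta-3 chain of the vitronectin receptor, fell from 60.4, 58.5 and 59.8 CPM to 21.2, 21.2 and 23 CPM (log2 fold change -1.45 ± 0.06, adjusted p = 2.13e-08), and Cdh6, a cadherin, rose from 21.8, 19.2 and 20.5 CPM to 52.9, 68.8 and 66 CPM (log2 fold change 1.61 ± 0.10, adjusted p = 3.81e-07). Itga8, the alpha-8 integrin chain and a member of both lists, was near the limit (1.05) and fell below it without vehicle replicate 6 (0.99) or Dex replicate 6 (0.96). Myocd, the coactivator of smooth muscle genes, rose from 0.801, 0.986 and 2.02 CPM to 7.55, 13.7 and 12.1 CPM (log2 fold change 3.14 ± 0.29, adjusted p = 1.33e-05), although Acta2, Tagln and Cnn1, which it is known to activate, changed by 0.16, -0.02 and -0.14. Synpo2, an actin-binding protein of the Z-disc, changed by -1.06, and without Dex replicate 5 by -0.97. In each of these lists, of 23 and 22 tested genes, 2 were raised and 1 was lowered. These are 8.7% and 9.09% raised and 4.35% and 4.55% lowered, beside 2.51% and 1.73% of all genes tested. At the adjusted p alone 8 adhesion genes were higher and 10 lower, and 6 contractile genes were higher and 4 lower. Of all genes tested, 24% passed the adjusted p alone.

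Extracellular regulators of activin were called in both directions. Inhba, the subunit of activin A, fell from 317, 322 and 352 CPM to 103, 124 and 127 CPM (log2 fold change -1.48 ± 0.08, adjusted p = 1.30e-07). Fst, which encodes follistatin, a protein that binds and blocks activin, rose from 34.7, 36.6 and 41.7 CPM to 129, 121 and 122 CPM (log2 fold change 1.72 ± 0.07, adjusted p = 1.85e-08), and its relative Fstl3 from 13.3, 12.8 and 14.9 CPM to 28.2, 26.1 and 29.8 CPM (log2 fold change 1.03 ± 0.08). Tgfbr3, a coreceptor, was at the limit (1.00) and fell below it without vehicle replicate 4 (0.98) or 5 (0.94) or Dex replicate 5 (0.97) or 6 (0.98). Fstl3 did so without Dex replicate 6 (0.98) or vehicle replicate 5 (0.99). In all, 3 of 37 tested genes of the pathway were raised (8.11%) and 2 lowered (5.41%), beside 2.51% and 1.73% of all genes tested. The list held 12 higher and 10 lower genes at the adjusted p alone. Smad7, Bmpr2 and Tgfbr1 changed by 0.11, -0.21 and -0.03.

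Wnt pathway genes were lowered in 6 of 34 cases (17.6%) and raised in 1 (2.94%), beside 1.73% and 2.51% of all genes tested. The list held 13 lower and 6 higher genes at the adjusted p alone, with a median of -0.10. Lgr4 and Lgr5, receptors for R-spondins, fell from 168, 159 and 155 CPM to 77.7, 81.3 and 78.5 CPM (log2 fold change -1.02 ± 0.05) and from 79, 77.9 and 68.9 CPM to 26.8, 32.7 and 31 CPM (log2 fold change -1.32 ± 0.08). The ligand gene Wnt9a fell from 11.5, 10.6 and 10.9 CPM to 5.69, 4.85 and 5.72 CPM (log2 fold change -1.02 ± 0.10), and Wif1, a secreted Wnt inhibitor, rose from 0.686, 1.22 and 1.53 CPM to 4.53, 3.9 and 3.5 CPM (log2 fold change 1.79 ± 0.24). Without vehicle replicate 4, Lgr4 (-0.99) and Wnt9a (-0.99) were not called, nor was Wnt9a without Dex replicate 5 (-0.95). Axin2, a target of the pathway, changed by 0.35 with an adjusted p of 0.064.

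Of 35 tested growth factor ligands, 5 were raised and 5 lowered (14.3% each), beside 2.51% and 1.73% of all genes tested. The list held 12 higher and 16 lower genes at the adjusted p alone, with a median of -0.16. Hgf, which encodes hepatocyte growth factor, fell from 33.4, 34.2 and 33.7 CPM to 10.4, 10.8 and 12.1 CPM (log2 fold change -1.61 ± 0.08, adjusted p = 4.15e-08). Vegfd, a lymphangiogenic factor, rose from 41.9, 39.3 and 39.8 CPM to 102, 102 and 105 CPM (log2 fold change 1.35 ± 0.06, adjusted p = 1.63e-08), and Ccn2, connective tissue growth factor, from 489, 497 and 559.8 CPM to 1466, 1284 and 1326 CPM (log2 fold change 1.40 ± 0.07, adjusted p = 8.69e-08). Tgfa, a ligand of the EGF receptor, rose from 2.94, 2.21 and 2.14 CPM to 11.1, 13.1 and 12.1 CPM (log2 fold change 2.32 ± 0.13, adjusted p = 2.39e-07), while Areg, another such ligand named after its value was seen, was called lowered (-1.45) and was not called without vehicle replicate 6 (-1.26, adjusted p = 0.101). Among MAP kinase phosphatases and Sprouty genes, which brake signalling from such receptors, Dusp1 and Dusp14 (1.09) were raised of 18 tested and none was lowered past the limit on size. At the adjusted p alone 2 were higher and 10 lower, and the median of the list was -0.30. Without Dex replicate 4 Dusp14 was not called (0.98). Of 18 genes of insulin-like growth factors and their binding proteins, Pappa2 alone was called, at 1.2 to 4.0 CPM, and it lost the call without vehicle replicate 6 (0.87) or Dex replicate 6 (0.78).

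Enzymes of retinoic acid synthesis were called in both directions. Aldh1a3 fell from 18.5, 19.1 and 20.01 CPM to 3.84, 3.73 and 3.37 CPM (log2 fold change -2.40 ± 0.09, adjusted p = 1.07e-08), and Aldh1a1 rose from 5.68, 5.92 and 4.28 CPM to 36.1, 37.6 and 34.6 CPM (log2 fold change 2.77 ± 0.10, adjusted p = 8.63e-09). Both are retinaldehyde dehydrogenases, and Aldh1a7, described above, is a paralog of Aldh1a1. Cyp26b1, which degrades retinoic acid, rose from 30.2, 28.9 and 34.3 CPM to 81.2, 90.9 and 86.1 CPM (log2 fold change 1.47 ± 0.07). With these, 3 of 19 tested genes of the pathway were raised (15.8%) and 1 lowered (5.26%), beside 2.51% and 1.73% of all genes tested. The list held 6 higher and 4 lower genes at the adjusted p alone.

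Pdk4, a kinase that inactivates the pyruvate dehydrogenase complex, rose from 6.41, 5.92 and 6.54 CPM to 96.2, 104 and 106 CPM (log2 fold change 4.02 ± 0.08, adjusted p = 4.19e-11), while Pdk1, Pdk2 and Pdk3, the other kinases of the complex, were not called (0.13, 0.11 and 0.13). Pdp1, a phosphatase that reactivates it, rose as well, from 22.9, 26 and 21.2 CPM to 77.8, 77.8 and 76.7 CPM (log2 fold change 1.73 ± 0.07, adjusted p = 2.18e-08). Glul, glutamine synthetase, rose from 26.4, 27.4 and 29.8 CPM to 145, 144 and 135 CPM (log2 fold change 2.34 ± 0.07, adjusted p = 1.02e-09). These were the 3 called genes of 28 tested, all of them raised.

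Of 31 tested insulin and growth control genes, 3 were raised (9.68%) and 2 lowered (6.45%), beside 2.51% and 1.73% of all genes tested. The list held 12 higher and 7 lower genes at the adjusted p alone, with a median of 0.0086. Irs2, an insulin receptor substrate, rose from 21.1, 19 and 25.4 CPM to 46.7, 58.8 and 55.1 CPM (log2 fold change 1.30 ± 0.11), and Sesn1, a stress-induced inhibitor of mTORC1, from 25.2, 25.7 and 23.3 CPM to 68.5, 70.7 and 68.5 CPM (log2 fold change 1.48 ± 0.06, adjusted p = 1.81e-08). Sesn3, its relative, fell from 111, 106 and 104 CPM to 47, 54.4 and 54 CPM (log2 fold change -1.05 ± 0.07), and Pik3r3, a regulatory subunit of PI3 kinase, from 46.2, 44.8 and 43.4 CPM to 19.8, 21.6 and 23 CPM (log2 fold change -1.06 ± 0.07). Without Dex replicate 4 Sesn3 fell short of the limit (-0.98).

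Adipogenic genes were raised in 5 of 28 cases (17.9%) and lowered in 2 (7.14%), beside 2.51% and 1.73% of all genes tested. The list held 11 higher and 6 lower genes at the adjusted p alone, with a median of -0.029. Fabp4, a fatty acid carrier, rose from 21.3, 20.6 and 19.8 CPM to 83, 66.9 and 67.4 CPM (log2 fold change 1.82 ± 0.09, adjusted p = 6.12e-08), and Cebpd, an early adipogenic factor named after its value was seen, by 1.65. Plin1, an adipocyte gene named after its value was seen, was called lowered (-2.27). Pparg, the master regulator of adipocytes, changed by 0.08 with an adjusted p of 0.394. Of 34 genes of sterol and fatty acid synthesis the 1 called was Ch25h, cholesterol 25-hydroxylase, which is also an inflammation-responsive gene. It fell from 7.89, 6.86 and 8.11 CPM to 1.21, 0.87 and 0.494 CPM and was the 1 gene lowered past 3 on the log2 scale (log2 fold change -3.15 ± 0.22, adjusted p = 9.57e-07). Srebf2, a regulator of sterol synthesis, changed by -0.08.

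Lipid mediators, cyclic nucleotides and ion handling each had a few strong changes. Sphk1, sphingosine kinase 1, rose from 13.2, 12.1 and 14.6 CPM to 58.4, 53.5 and 54.5 CPM (log2 fold change 2.06 ± 0.08, adjusted p = 8.88e-09), and S1pr1, a receptor for its product, fell from 34.4, 33.6 and 35.5 CPM to 13.9, 13.1 and 14 CPM (log2 fold change -1.34 ± 0.07, adjusted p = 7.67e-08). Pde4b, a cAMP phosphodiesterase, fell from 30.2, 33.8 and 31.6 CPM to 6.56, 6.63 and 6.21 CPM (log2 fold change -2.30 ± 0.08, adjusted p = 5.55e-09), and with Pde8b (-1.19) it made 2 lowered of 14 tested. Sgk1, the kinase that glucocorticoids induce to promote sodium transport, rose from 66.8, 64.5 and 73.1 CPM to 192, 187 and 189 CPM (log2 fold change 1.48 ± 0.06, adjusted p = 1.54e-08), and its substrate gene Ndrg2 from 6.14, 5.56 and 5.89 CPM to 43.9, 38.4 and 35.9 CPM (log2 fold change 2.75 ± 0.10, adjusted p = 5.55e-09). Together with Kcnk1, a potassium channel that was not called without vehicle replicate 4 (1.11, adjusted p = 0.0508), they were the 3 raised of 21. Of 10 gap junction genes Gjb2, which encodes connexin 26, fell from 77.5, 77.5 and 86.2 CPM to 21.6, 22.6 and 21.8 CPM (log2 fold change -1.87 ± 0.07, adjusted p = 5.62e-09) and Gja5, connexin 40, from 2.21, 1.81 and 1.78 CPM to 0.345, 0.497 and 0.905 CPM (log2 fold change -1.72 ± 0.30), whereas Gja1, connexin 43, changed by 0.24.

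None of the 36 tested genes of the cell cycle list was called, with 3 higher and 6 lower at the adjusted p alone and a median of -0.076. Wee1, a kinase that delays mitosis and is not in the list, was raised (log2 fold change 1.17 ± 0.06) and is named after its value was seen. Of 8 CDK inhibitors Cdkn1c was raised. Cdkn1c, which encodes p57, rose from 92.6, 90.9 and 74.9 CPM to 401, 371 and 341 CPM (log2 fold change 2.11 ± 0.09, adjusted p = 1.85e-08), while Cdkn1a and Cdkn1b changed by 0.04 and -0.03. No gene was called among 20 housekeeping genes, whose median was 0.12, or among 17 complement genes, whose median was 0.10. Of the complement genes, 6 were higher and 2 lower at the adjusted p alone, and of the housekeeping genes 3 were higher and none was lower.

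Other genes with large falls belonged to none of these groups or to several. Tnfrsf11b, which encodes osteoprotegerin, a decoy receptor for RANKL, fell from 47.6, 46.8 and 46.8 CPM to 8.97, 8.91 and 9.01 CPM (log2 fold change -2.39 ± 0.07, adjusted p = 1.02e-09). Spon2, a secreted matrix protein, fell from 7.7, 7.26 and 5.16 CPM to 1.04, 0.953 and 1.03 CPM (log2 fold change -2.73 ± 0.20). Lrrtm2 and Lrrc4c, leucine-rich repeat proteins known from synapses, fell from 3.32, 4.54 and 4.28 CPM to 0.604, 0.497 and 0.617 CPM (log2 fold change -2.81 ± 0.22) and from 3.62, 5.01 and 4.8 CPM to 0.776, 0.912 and 0.781 CPM (log2 fold change -2.43 ± 0.20). In each of these 4 genes every Dex library lay well below every vehicle library.

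Few markers of other cell types were called. Cx3cr1, the fractalkine receptor, was the 1 macrophage marker of 20 called, at 5.8, 3.79 and 4.24 CPM with vehicle and 1.51, 1.53 and 1.48 CPM with Dex (log2 fold change -1.61 ± 0.20). Mrc1 (0.72), C1qa (0.62) and C1qb (0.87) were higher at an adjusted p under the threshold, and Ptprc (-0.61) was lower. In bulk RNA fewer cells of a type and less RNA per cell cannot be told apart. Krt15 and Cdh1, both at or below 1.3 CPM, were called lowered among the 7 tested epithelial markers, of which Cdh1 lost the call when either vehicle replicate 6 (-1.01, adjusted p = 0.123) or Dex replicate 4 was dropped (-1.03, adjusted p = 0.0679), and none of the tested endothelial, cartilage, muscle or neural markers was called.

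The same treatment of GRwt/wt MEFs in run 1 gave a smaller set of calls, 161 raised and 93 lowered of 13480 tested. Of the genes called in run 2, 263 raised and 162 lowered genes were tested there, and 110 and 44 of these were called in the same direction. These are 29.7% and 17.3% of the run 2 sets, which include genes not tested in run 1, and 68.3% and 47.3% of the run 1 sets. At the adjusted p alone, 208 of the 263 raised and 102 of the 162 lowered genes changed in the same direction in run 1. Of the genes raised in run 2, 1 was called lowered in run 1. The median change of the genes called in run 2 was 0.87 and -0.63 on the log2 scale in run 1, which describes them and is no test, since they were chosen by run 2. The difference between the responses was therefore tested for every gene as an interaction over the 12 GRwt/wt libraries. The response was higher in run 2 for 383 of 15018 genes (2.55%) and lower for 420 (2.8%). Among the genes raised in run 2 it was higher in 125 and lower in 8, and among those lowered it was more negative in 71 and less negative in none. The choice of genes by the same run 2 libraries favours these directions. Without Dex replicate 4 the counts over all genes were 584 higher and 553 lower. Nr3c1 was at 64.2 to 69.8 CPM in the vehicle libraries of run 1 and at 100.5 to 112 CPM in those of run 2, and its part in these differences was not tested. Run 1 was sequenced less deeply, with 15280166 to 18458813 counts in its 6 libraries.

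Tsc22d3 rose by 3.57 in run 2 and 1.83 in run 1 (difference 1.73 ± 0.10, adjusted p = 7.40e-09). Pdk4 rose by 4.02 and 1.84 (difference 2.17 ± 0.13, adjusted p = 7.40e-09). Cdo1, a cysteine dioxygenase, Gpx3, a secreted glutathione peroxidase, and Olr1, a scavenger receptor, were raised in run 2 by 1.61, 1.19 and 1.39 and had log2 fold changes of 0.13, 0.08 and -0.18 in run 1. In the other direction, Lrrc32, which tethers latent TGF-beta, Tnfrsf11b, Cxcl14 and Bpgm, the 2,3-bisphosphoglycerate mutase, changed by -2.09, -2.39, -1.67 and -1.52 in run 2 and by -0.64, -1.05, -0.40 and -0.45 in run 1. Sorbs2, an adaptor of the actin cytoskeleton, rose in run 1, with 3.02 there and 0.50 in run 2 (difference -2.53 ± 0.17, adjusted p = 2.79e-08). For other genes a difference between the runs was not detected. Per1 rose by 2.03 and 1.91, Sgk1 by 1.48 and 1.36 and Klf9 by 1.25 and 1.05, and their differences of 0.10, 0.10 and 0.18 had adjusted p-values of 0.773, 0.693 and 0.219.

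**Figure D5:**
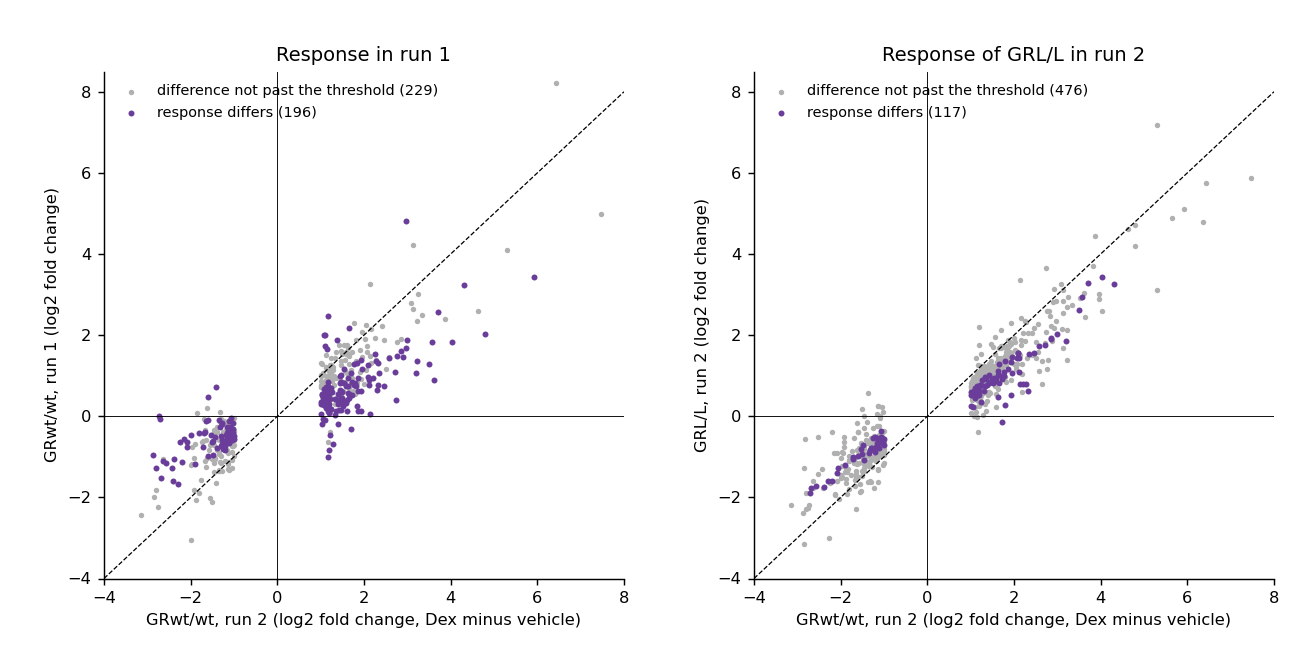
Log2 fold change, Dex minus vehicle, of the genes called in GRwt/wt of run 2 (horizontal axis) against that in GRwt/wt of run 1 (left, 425 genes with a value) and in GRL/L of run 2 (right, 593 genes), with purple for genes whose response differs at an adjusted p of at most 0.05 (196 and 117) and a dashed line of equality. Most purple points lie nearer to 0 on the vertical than on the horizontal axis, in a set chosen by the horizontal one.

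Within run 2, the response of GRL/L MEFs was nearer to 0 in part of the genes that GRwt/wt changed. GRL/L had 219 raised and 154 lowered genes of 14861 tested. Of these, 192 and 97 were also called in GRwt/wt of run 2, which are 51.9% and 38.0% of the GRwt/wt sets and 87.7% and 63.0% of the GRL/L sets. Over all 15241 genes tested for the difference, the response was lower in GRL/L for 134 (0.879%) and higher for 65 (0.426%). Among genes raised in GRwt/wt, the response was lower in GRL/L for 80 and higher for none, and among lowered genes it was less negative for 37 and more negative for none, directions that the choice by GRwt/wt favours. The median change in GRL/L was 1.08 for the raised and -0.91 for the lowered genes that were tested there. Without Dex replicate 4 of GRwt/wt, 282 genes had a lower and 108 a higher response in GRL/L over all genes. Epas1, the hypoxia-inducible factor HIF-2 alpha, rose from 8.73, 7.45 and 9.72 CPM to 40.7, 44.9 and 44.5 CPM in GRwt/wt (log2 fold change 2.33 ± 0.09) and by 0.63 in GRL/L (difference -1.69 ± 0.12, adjusted p = 1.20e-06). Tgm2, a transglutaminase, rose by 2.29 and 0.81 (difference -1.47 ± 0.12, adjusted p = 4.05e-06). Mt2 rose by 4.30 and 3.26 (difference -1.03 ± 0.10, adjusted p = 3.51e-05). Rgs4, a brake on G protein signalling, changed by -1.06 in GRwt/wt and by -0.51 in GRL/L, and Bpgm by -1.52 and -0.81. Lars2, a mitochondrial leucyl-tRNA synthetase, changed by -0.54 in GRwt/wt and 0.62 in GRL/L, and its vehicle level in GRwt/wt was uneven, at 95.4, 130.1 and 105 CPM. For Per2 the responses of 2.27 and 2.34 differed by 0.08 ± 0.17 (adjusted p = 0.9).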

How the data were processed

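Raw counts per gene, whole numbers as the authors deposited them, were analysed for MEFs treated for 5 h with vehicle or 1 µM Dex. Per the submitters' processing notes and the methods, unique reads aligned to mm10 by HISAT2 2.1.0 were counted with featureCounts 2.0.0. The annotation and strand setting are not given in the sources used here, so counts of paralogs and overlapping genes are uncertain. The study tested both runs together in DESeq2 with an experiment term.

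Here the 6 libraries were compared in edgeR 4.0.16 (R 4.3.3) by the quasi-likelihood F test with TMM, filterByExpr and Benjamini-Hochberg adjustment. Errors are standard errors, the absolute log2 fold change over the square root of F. Levels are CPM by effective library size, and summed markers, Krt5, Krt14 and the Nr3c1 ranges across groups are CPM of all counts. Lengths come from GENCODE vM21, and promoters from RefSeq (GRCm38.p6) by symbol.

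The genes named are Nr3c1 and the qPCR genes, the 12 raised and 12 lowered most among called genes without overlap whose mean was 50 counts or more, up to 4 called members per list by adjusted p, and 5 and 3 per direction of the run and genotype differences. Uncalled list members, markers and genes so marked were picked with their values known. The lists and comparisons were chosen with earlier results of these data known. Alternatives were DESeq2 1.42.0, other size factors, filters, thresholds, fits and left-out libraries.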

Additional observations from a re-analysis of the deposited data

Results flagged for a closer look

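The responses below were picked out because the same Dex treatment gave a different change in another group of libraries, by the interaction test of edgeR with an adjusted p of at most 0.05. Between the runs of GRwt/wt, the response in run 2 minus that in run 1 was 1.73 on the log2 scale for Tsc22d3, 1.47 for Cdo1, 2.17 for Pdk4, 1.09 for Gpx3 and 1.56 for Olr1. It was -1.47 for Lrrc32, -1.36 for Tnfrsf11b, -2.53 for Sorbs2, -1.29 for Cxcl14 and -1.08 for Bpgm. The run and the cultures used in it cannot be told apart.

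Between genotypes in run 2, the response in GRL/L minus that in GRwt/wt was 0.56 for Rgs4, 0.72 for Bpgm and 1.17 for Lars2, and -1.69 for Epas1, -1.47 for Tgm2 and -1.03 for Mt2. All 6 of these genes also differed between the runs of GRwt/wt at an adjusted p of at most 0.05, where the response of Epas1 was 0.77 in run 1 and 2.33 in run 2 (difference 1.54, adjusted p = 1.12e-06) and that of Rgs4 -0.05 and -1.06. Both differences use the same GRwt/wt libraries of run 2. The adjusted p-values were 3.72e-07, 9.00e-06, 3.60e-06, 3.62e-06 and 0.0217 for the run difference of Bpgm, Tgm2, Mt2, Rgs4 and Lars2.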

How the results depend on the processing

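The counts of raised and lowered genes, 370 and 255, became 1797 and 1729 with no limit on the fold change and 196 and 63 when the limit was tested itself (glmTreat), and the lowered count was 152 with at least 10 counts in every library. Leaving out single libraries gave 369 to 392 raised and 229 to 280 lowered. For run 2 against run 1, 84 genes were higher and 53 lower with a difference of at least 1, and single libraries moved the counts to 281 to 584 higher and 277 to 553 lower, highest without GRwt/wt run 2 Dex replicate 4 and lowest without run 1 Dex replicate 2. For GRL/L against GRwt/wt, 132 genes were higher and 327 lower without a filter on low counts, 100 higher with all 36 libraries in one fit, and 4 and 12 with a difference of at least 1. Single libraries gave 34 to 108 higher and 87 to 282 lower, highest without GRwt/wt Dex replicate 4 and lowest without GRL/L vehicle replicate 2. The cause was not tested, beyond fewer or more genes and libraries entering the fit. No result reversed under the alternatives run.

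Same-numbered Dex and vehicle libraries did not deviate together (correlations of -0.059, 0.010 and 0.0078 over 12088 genes). With so few libraries per treatment, these values cannot show whether same-numbered libraries came from one culture. The libraries were treated as unpaired. With a replicate block, 367 genes were raised and 253 lowered, 314 and 357 differed between runs, and 37 were higher and 94 lower in GRL/L. List counts without Dex replicate 4 or vehicle replicate 6, and DESeq2 for GRko/ko, were added after seeing the data. Genes under 1 CPM rest on few counts, and 365 of the 625 called genes had a mean of at least 50 counts.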

Other observations

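The genes below lie outside the lists and were chosen after their values were seen, so they stand for no group. Ace, which encodes angiotensin-converting enzyme, rose from 19.2, 18.4 and 17.5 CPM to 113, 146 and 142 CPM (log2 fold change 2.86 ± 0.10), and Edn1, endothelin 1, from 3.01, 3.47 and 4.36 CPM to 13.9, 12.9 and 14.7 CPM (log2 fold change 1.94 ± 0.13). Adm, adrenomedullin, rose by 2.09, and the alpha-adrenergic receptor genes Adra1b and Adra2a by 1.58 and 1.61. Ednrb, an endothelin receptor, and Apln, which encodes the peptide apelin, were called lowered (-1.03 and -1.05), Apln not without vehicle replicate 6 (-0.90). The small heat shock protein genes Hspb1, Hspb7 and Cryab had changes of 1.80, 1.48 and 1.15 and were called raised.

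Of genes known from myeloid cells, Ms4a4a rose from 0.152, 0.118 and 0.202 CPM to 2.67, 1.99 and 1.27 CPM (log2 fold change 3.61 ± 0.40), Mertk, a receptor for the uptake of dead cells, by 1.57 and Tlr7 by 1.36. Lyve1, a hyaluronan receptor, went from 2, 3 and 2 counts to 56, 57 and 59 counts, a ratio of 25.2 with an exact 95% interval of 12.0 to 63.5 for counting error. Lilrb4a, an inhibitory receptor, changed by -1.57 and Cd300lb by -1.04, both called lowered. The summed macrophage markers were 661 to 710 CPM with vehicle and 613 to 690 CPM with Dex, and their part in these changes was not tested. Among transcription factors, Ahr, the aryl hydrocarbon receptor, was lowered (log2 fold change -1.62 ± 0.09), as was Runx1 (log2 fold change -1.34 ± 0.09).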
